A study of Macaca fascicularis with 16 samples.

Results

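The suprarenal aorta, the abdominal stretch above the renal arteries, was compared with the ascending aorta, the stretch that leaves the heart. Bulk RNA-seq was read from the aortic wall of young, healthy cynomolgus monkeys (Macaca fascicularis) that had received no intervention, labelled as baseline. The comparison and the gene lists were chosen with earlier results of these data known. The comparison uses 8 of the 16 libraries of the study, 4 labelled suprarenal and 4 labelled ascending, taken by their labels. The other 8 libraries, 4 of the descending and 4 of the infrarenal aorta, were fitted together with these, so they also bear on the scaling, the spread and the set of genes tested (15087 with only the 8 compared), and their values are given beside some genes as a description. The labels do not say which libraries share an animal, so p-values measure only the spread between these libraries, which may be technical. The title of the study links NOTCH3 with the dispersion of elastic fibres in the infrarenal aorta. Of 32822 genes in the count table, 15926 had enough counts to be tested.

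The aortic wall is built mainly from smooth muscle cells and elastic sheets, lined by endothelium inside and wrapped by adventitia, nerves and perivascular fat outside. The muscle of the ascending aorta comes from the second heart field and the neural crest, whereas that of the abdominal aorta comes from paraxial and splanchnic mesoderm. Adult cells keep a record of their place along the body axis in the HOX genes, a family of transcription factors arranged in 4 clusters, named HOXA, HOXB, HOXC and HOXD. Genes of low paralog number within a cluster are used from the hindbrain backwards, and genes of higher number only further down the body. Notch receptors, in particular NOTCH3, are read by mural cells in contact with cells that carry Jagged and Delta ligands.

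Total counts ran from 15547002 to 16509749 in the ascending and from 14649689 to 21407514 in the suprarenal libraries. Smooth muscle markers were abundant in all 8: ACTA2, smooth muscle actin, lay between 3810 and 7192 CPM (the usual depth-scaled count unit, here with TMM factors) and MYH11, smooth muscle myosin, between 2952 and 14106 CPM. Ascending replicate 4 and suprarenal replicate 3 stood apart from the other 6. A principal component analysis of the 8 put them at 61.6 and 95.1 on its first axis, with 40.4% of the variance, and the others between -44.8 and -8.36. These 2 libraries were also the highest of their regions in endothelial and lymphocyte markers and the lowest of their regions in contractile smooth muscle genes. The second axis, with 17.9%, separated the regions, with ascending libraries at 24.5 to 34.9 and suprarenal libraries at -45.2 to -12.8. In bulk samples, fewer cells of a type and less RNA per cell cannot be told apart.

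Called refers here to an adjusted p under 0.05 in the main edgeR fit (quasi-likelihood F test, Benjamini-Hochberg adjustment). That fit did not use the replicate number as a block. Exceptions name another tool or the replicate block. By this test 41 genes differed, which is 0.257% of those tested. Of these, 27 were higher in the suprarenal aorta (0.17%) and 14 were lower (0.0879%). HOX genes made up 10 of the 27, and their changes were among the largest: HOXA7, HOXA9, HOXA10, HOXB8, HOXC6, HOXC8 and HOXC9 each differed by more than 5 on the log2 scale. NOTCH3, COL1A1, ADGRL3 and TENM3 were also higher in the suprarenal wall. Among the 14 lower genes were the cardiac transcription factor HAND1, the adenosine-forming enzyme NT5E and the keratin KRT8. The median log2 difference over all tested genes was 0.01, and 51.8% of them lay above 0. At an unadjusted p under 0.05 edgeR had 876 of the 15926 tested genes. Over all genes DESeq2 called 121 higher and 63 lower, and limma voom 19 and 23. With the replicate block edgeR called 76 genes. Among the list members described below, the block added GATA5, HAND2, TFAP2A, SLIT3, MFAP5, ASPN and CPA3, although no label ties a replicate number to an animal.

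**Figure D1:**
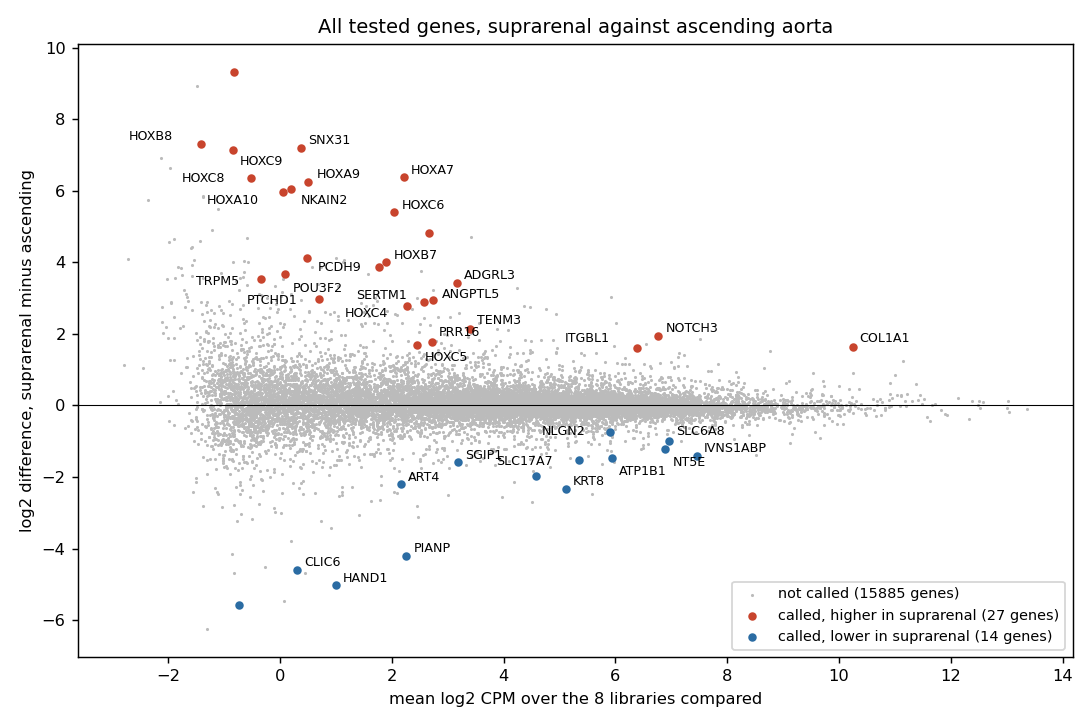
Each point is a tested gene, with its mean log2 CPM over the 8 libraries on the horizontal axis and its log2 difference, suprarenal minus ascending, on the vertical axis. The 27 called higher genes (red) include 10 HOX genes, and the 14 called lower genes (blue) include HAND1 at -5.03; some called genes, among them those without a symbol, are drawn but carry no name.

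HOX genes of paralog groups 6 and above held the most calls of any list. Of 24 such genes listed, 15 could be tested, all 15 had a positive difference, and 8 were called higher, with none called lower, against 0.17% of all genes. The 4 suprarenal libraries all lay above the 4 ascending ones in 11 of the 15, against 1.74% of all tested genes. The median difference of the 15 was 4.68 on the log2 scale, beside 0.01 for all genes, and it stayed at 4.68 with HOXB8, at 0 counts in the ascending libraries, set to its lower bound. The other 9 had too few counts to test. A member that passed the count filter only through the region where it is high had to differ, so these counts describe the tested genes and no more.

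HOXA7 measured 0.689, 0.123, 0.605 and 0.483 CPM in the ascending libraries and 44.3, 48.0, 34.9 and 33.3 CPM in the suprarenal libraries. Its mean went from 0.475 ± 0.249 to 40.1 ± 7.17 CPM (SD, n = 4), a log2 difference of 6.38 (SE 0.65, adjusted p = 0.000261, edgeR). No ascending library came near the suprarenal range. HOXA10 gave 0.0627, 0.185, 0.0605 and 0.0604 CPM in the ascending and 3.15, 13.3, 5.71 and 2.66 CPM in the suprarenal libraries, a log2 difference of 5.97 (SE 0.62, adjusted p = 0.000261, edgeR). HOXA9 gave 0.0627, 0.0617, 0.0605 and 0.362 CPM against 5.57, 25.8, 9.01 and 3.78 CPM, a log2 difference of 6.25 (SE 0.72, adjusted p = 0.000714, edgeR). For both genes suprarenal replicate 2 was the highest of its region, and the groups did not overlap. HOXA10 in the infrarenal libraries lay at 24.8 to 42.5 CPM and in the descending libraries at 1.26 to 2.55 CPM, so the suprarenal values fell between these ranges.

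In the HOXB cluster, HOXB7 measured 1.13, 0.617, 0.605 and 1.27 CPM in the ascending and 12.1, 18.7, 17.3 and 10.2 CPM in the suprarenal libraries. That is a 16-fold difference (log2 4.0, SE 0.41, adjusted p = 0.000261, edgeR) with a wide gap between the groups. HOXB8 had 0 counts in the 4 ascending libraries together and 83 counts in the suprarenal ones, which makes it at least 25.9-fold higher against a floor of 3 counts over the group (adjusted p = 0.0254, edgeR). HOXB8 overlaps HOXB9 in the RefSeq gene models.

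Within HOXC, HOXC6 gave 1.75, 0.309, 0.121 and 0.543 CPM in the ascending and 34.5, 32.9, 22.1 and 25.8 CPM in the suprarenal libraries, a log2 difference of 5.39 (SE 0.63, adjusted p = 0.00077, edgeR). The suprarenal libraries were all far above the highest ascending one. HOXC8 held 3 counts in the ascending and 324 in the suprarenal libraries, 101 times as many (95% interval 34.3 to 492 from counting alone; adjusted p = 0.0162, edgeR). HOXC9 held 1 and 244 counts, 228 times as many (40.6 to 9050; adjusted p = 0.00417, edgeR). These ratios are corrected for library size. Suprarenal replicate 2 was the highest of its region for both. It held HOXC8 at 9.71 CPM beside 1.98, 4.89 and 0.709, and HOXC9 at 8.13 CPM beside 1.18, 2.54 and 0.886. Neither HOXC8 nor HOXC9 was called by limma voom or when only the 8 compared libraries were fitted. In RefSeq, the model of HOXC10 overlaps those of HOXC4, HOXC5, HOXC6, HOXC8 and HOXC9, and that of HOXC6 overlaps HOXC4, HOXC8 and HOXC9. Whether the counting used strand is not given in the sources used here, so reads of these genes cannot be told apart where the models overlap. The limit is wider than HOX. Of 39 called genes with an entry in the annotation, 19 overlapped another gene model. Among them were ATP1B1, TRPM5, TENM3, PCDH9, ADGRL3, PRR16, NKAIN2, ART4, IVNS1ABP and SLC6A8. The calls of HOXB8 and HOXC8 were not kept in every fit without 1 library. HOXB8 was lost without ascending replicate 1, 2 or 3 or suprarenal replicate 2 or 3 (adjusted p up to 0.0832, edgeR). HOXC8 was lost without ascending replicate 1, 2 or 3 (adjusted p up to 0.0835, edgeR).

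Of HOX genes of paralog groups 1 to 5, fewer were called. Of 15 listed, 13 were tested and 9 had a positive difference, beside 51.8% of all genes. HOXC4 and HOXC5 were called higher, against 0.17% of all genes, and none was called lower. The 4 suprarenal libraries all lay above the 4 ascending ones in 4 of the 13, against 1.74% of all tested genes. The median difference was 0.52. HOXC4 measured 2.57, 1.97, 1.09 and 1.81 CPM in the ascending and 14.4, 18.8, 8.25 and 9.21 CPM in the suprarenal libraries, a 6.80-fold difference without overlap (log2 2.77, SE 0.36, adjusted p = 0.00239, edgeR). HOXC5 measured 5.01, 2.22, 2.91 and 2.23 CPM against 13.3, 7.27, 9.58 and 9.80 CPM (log2 1.69, SE 0.32, adjusted p = 0.0384, edgeR). Its call was kept in only 5 of the 16 fits that left out 1 library each, those without ascending replicate 1, descending replicate 1 or 4, or infrarenal replicate 1 or 4; in the others the adjusted p reached 0.167 (edgeR).

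In HOXA and HOXB, differences near 0 at low group numbers gave way to larger ones further along. HOXA5 was not tested, and the first larger differences, of HOXA6 and HOXB5, were not called. The place of the step can thus not be compared between the clusters. In HOXA, the genes of groups 2 to 4 ran from -0.18 to 0.04, none of them called, and HOXA4 measured 6.76 to 19.1 CPM in the ascending and 8.61 to 13 CPM in the suprarenal libraries. The next tested member, HOXA6, had 6 counts in the ascending and 173 in the suprarenal libraries (log2 4.68, SE 1.10, adjusted p = 0.125, edgeR, not called). In HOXB, the genes of groups 2 to 4 ran from -0.01 to 0.52, the last being HOXB3, and HOXB5 (2.40, SE 0.52, adjusted p = 0.0887) and HOXB6 (1.22, SE 0.26, adjusted p = 0.0827) did not pass the edgeR test although their groups did not overlap. In HOXD, edgeR called none of 6 tested genes, 5 of them at an unadjusted p under 0.05, whereas DESeq2 and limma voom each called HOXD4 and HOXD8 higher. HOXD10, with 4 and 9 counts in the ascending and suprarenal libraries, was tested because the infrarenal libraries held 2.55 to 16.1 CPM. HOXD8 came nearest in edgeR, with 1.25, 0.864, 1.15 and 6.16 CPM in the ascending and 10.6, 19.2, 19.2 and 11.6 CPM in the suprarenal libraries (log2 2.68, SE 0.56, adjusted p = 0.0708, edgeR). HOXD4 gave 1.25, 1.42, 1.51 and 11 CPM against 14.4, 24.2, 29.4 and 15.9 CPM (log2 2.46, adjusted p = 0.149, edgeR). In both HOXD8 and HOXD4, ascending replicate 4 was well above the other 3 ascending libraries. The genes HOXA4, HOXA6, HOXB3, HOXB6 and HOXD8 were chosen for description after their values were seen.

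**Figure D2:**
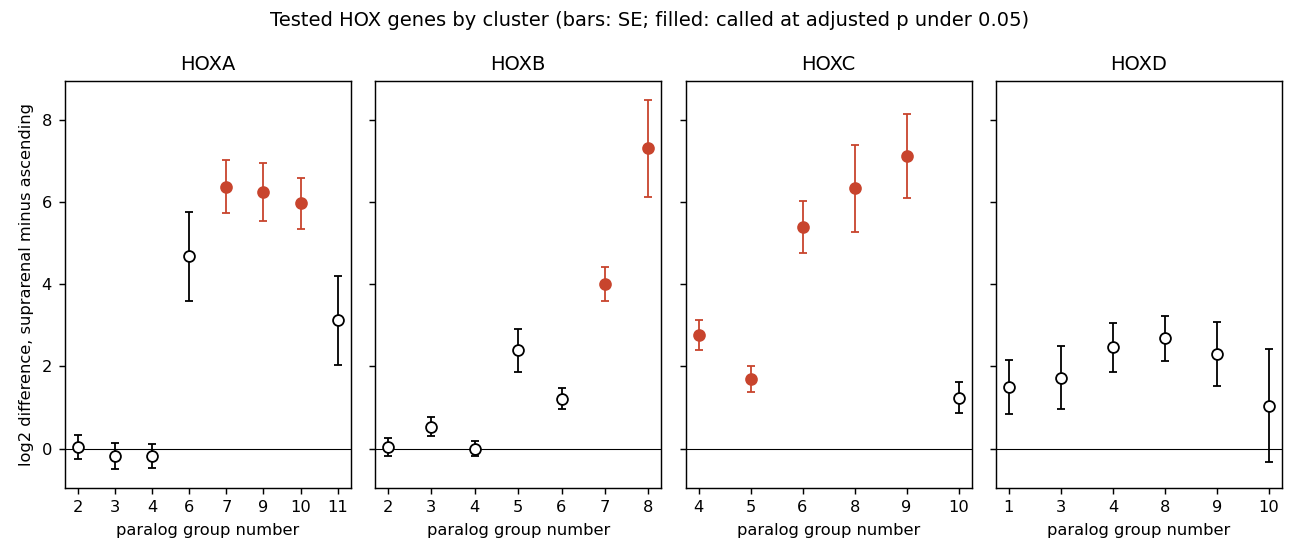
Log2 difference, suprarenal minus ascending (vertical axis), of tested HOX genes, ordered by paralog group number within each cluster; bars are the SE and filled points passed an adjusted p under 0.05. HOXA and HOXB lie near 0 at low group numbers and reach 6.38 and 7.31 further along, HOXC is above 0 from its first gene, and HOXD has no filled point in this edgeR fit.

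A lncRNA gene without a symbol, whose model overlaps HOXD3 and HOXD4, was called higher, with 0.0627, 0.370, 0.303 and 0.422 CPM in the ascending and 4.33, 6.50, 4.31 and 5.31 CPM in the suprarenal libraries (log2 4.11, SE 0.51, adjusted p = 0.0015, edgeR). The MEIS, PBX and PKNOX cofactors, which bind DNA together with HOX proteins, gave no call among 8 tested in edgeR, DESeq2 or limma voom and none at an unadjusted p under 0.05, and their median difference was 0.04. MEIS2 measured 66.4, 65.5, 49.7 and 70.0 CPM in the ascending and 109, 56.3, 51.4 and 84.7 CPM in the suprarenal libraries (log2 0.26, SE 0.21, adjusted p = 1.00, edgeR), with overlapping groups. PKNOX2 had a log2 difference of -0.41 (SE 0.23, adjusted p = 1.00, edgeR). Retinoic acid pathway genes, the pathway that helps set HOX boundaries in the embryo, gave no call among 16 tested by any of the 3 tools (2 at an unadjusted p under 0.05 in edgeR), with 13 positive and a median difference of 0.41, which was 0.04 without suprarenal replicate 3.

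NOTCH3, a receptor of vascular smooth muscle and pericytes, was higher in all suprarenal libraries than in any ascending one. It measured 71.2, 45.1, 47.8 and 61.3 CPM in the ascending and 256, 248, 177 and 182 CPM in the suprarenal libraries. The mean went from 56.3 ± 12.2 to 216 ± 41.7 CPM (SD, n = 4), a 3.83-fold difference (log2 1.94, SE 0.26, adjusted p = 0.00284, edgeR), and the call was kept in all 16 fits without 1 library. The NOTCH3 call was lost with a minimum log2 change of 1 and with the replicate block on only the 8 compared libraries. For description, the descending libraries measured 94.2 to 236 CPM and the infrarenal libraries 402 to 505 CPM.

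No other Notch gene was called by edgeR, DESeq2 or limma voom. Of 29 tested, NOTCH3 was the 1 called higher, against 0.17% of all genes, and none was called lower. Of the 29, 23 were positive, beside 51.8% of all genes. The median difference was 0.39, or 0.03 without suprarenal replicate 3. JAG1, a ligand that smooth muscle and endothelium present to Notch receptors, measured 92.0, 69.9, 97.5 and 96.9 CPM in the ascending and 159, 152, 181 and 113 CPM in the suprarenal libraries. Its groups did not overlap, but its log2 difference of 0.76 (SE 0.21) did not pass the edgeR test (adjusted p = 0.269). RBPJ, the DNA-binding partner of the cleaved Notch receptor, had a log2 difference of 0.28 (SE 0.13, adjusted p = 0.87, edgeR). DTX3, of the Deltex family of Notch regulators, had one of -0.36 (SE 0.15, adjusted p = 0.788, edgeR). The direct target repressors HES1, HEY1, HEY2 and HEYL had log2 differences of 0.53, 0.58, 0.39 and -0.11, none called; these 4 were named for their role, outside the rule for named genes.

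NOTCH3 also belongs to the list of pericyte and mural cell markers. All 11 tested members were positive, beside 51.8% of all genes, and the median difference was 0.68. NOTCH3 was the 1 called by edgeR and by limma voom (DESeq2 added PDGFRB), and edgeR called 0.17% of all genes higher. The mean score of the list (the average log2 CPM of its members after subtracting each member's own 8-library mean) was -0.42 to -0.27 in the ascending and 0.19 to 0.47 in the suprarenal libraries, so the groups did not overlap on it. PDGFRB, the receptor through which mural cells are recruited, measured 201, 161, 187 and 167 CPM against 265, 273, 234 and 247 CPM (log2 0.51, SE 0.13, adjusted p = 0.15, edgeR). RGS5, a regulator of G protein signalling in mural cells, ran from 825 to 2313 CPM in the ascending and from 739 to 6407 CPM in the suprarenal libraries (log2 1.23, adjusted p = 0.705, edgeR). Suprarenal replicate 3 was the lowest of the 8 for RGS5, and also for the adhesion molecule MCAM (log2 0.68, adjusted p = 0.585, edgeR).

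**Figure D3:**
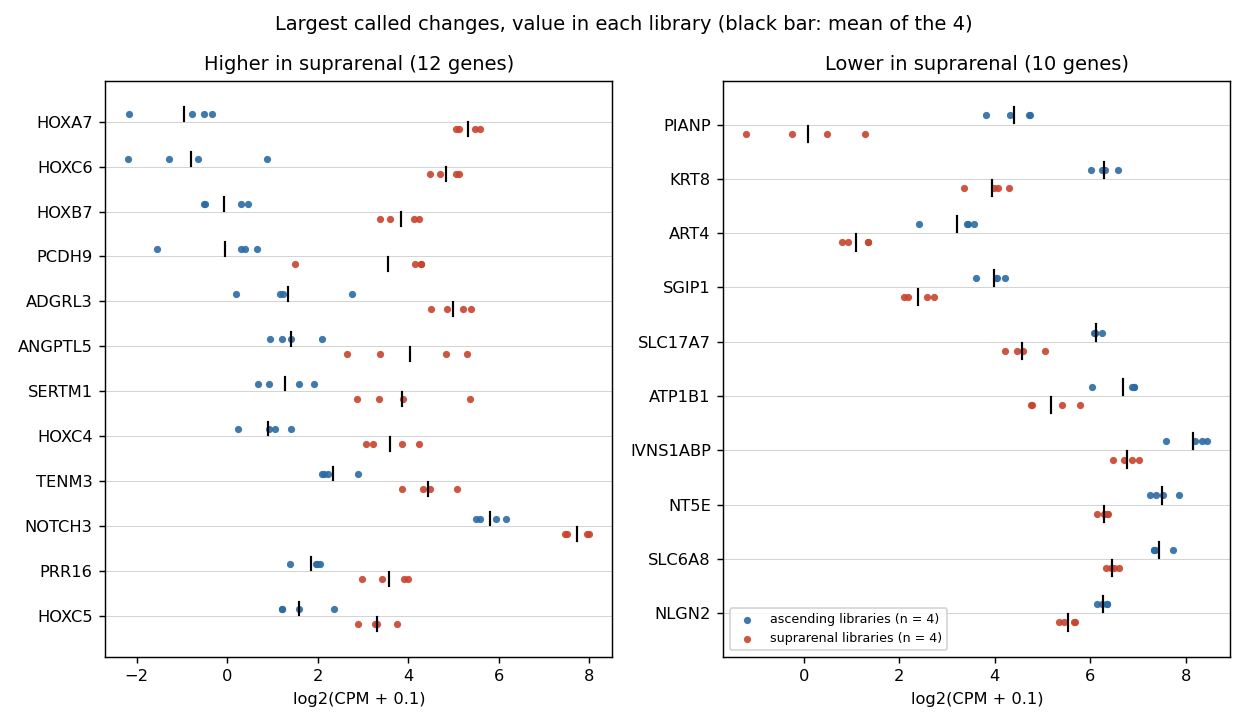
Values in each library, as log2(CPM + 0.1), of the 12 called higher and 10 called lower genes with the largest differences among those of at least 1 mean log2 CPM and without overlap; points are libraries and black bars the mean of 4. Suprarenal replicate 3 is the low red point of PCDH9 at 2.73 CPM, and ascending replicate 4 the low blue point of ATP1B1 at 65.8 CPM.

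ADGRL3, TENM3 and PCDH9, which code for adhesion proteins of the cell surface, were called higher; no list of such genes was tested. ADGRL3, a latrophilin receptor, measured 2.13, 1.05, 2.24 and 6.64 CPM in the ascending and 28.9, 36.8, 22.5 and 41.8 CPM in the suprarenal libraries, a 10.7-fold difference (log2 3.43, SE 0.44, adjusted p = 0.00202, edgeR). TENM3, a teneurin and thus a ligand of latrophilins, measured 4.20, 4.32, 4.6 and 7.36 CPM against 19.8, 33.5, 14.5 and 22.3 CPM (log2 2.14, SE 0.28, adjusted p = 0.00243, edgeR). Neither ADGRL3 nor TENM3 overlapped between the groups, and both calls were kept in all 16 fits without 1 library. ADGRL3 was not called when only the 8 compared libraries were fitted, and TENM3 was not called with a minimum log2 change of 1. Both were lost with the replicate block on only the 8 libraries. PCDH9, a protocadherin, measured 1.13, 1.48, 0.242 and 1.21 CPM against 19.3, 17.6, 2.73 and 19.3 CPM (log2 3.85, SE 0.76, adjusted p = 0.0499, edgeR). Its call was kept only in the fits without descending replicate 2, suprarenal replicate 3 or infrarenal replicate 1 or 3, with an adjusted p of up to 0.179 in the other 12.

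NKAIN2, a partner of the sodium pump's beta subunit, gave 0, 0.123, 0.121 and 0.302 CPM in the ascending and 5.57, 27.5, 3.11 and 1.89 CPM in the suprarenal libraries (log2 6.04, SE 0.96, adjusted p = 0.0114, edgeR). Suprarenal replicate 2 lay far above the other 3, as it did for HOXA9. The infrarenal libraries measured 33.9 to 46.9 CPM. SNX31, a sorting nexin, gave 0.0627, 0, 0.0605 and 0.181 CPM against 28.6, 5.12, 3.55 and 11.8 CPM (log2 7.19, SE 1.02, adjusted p = 0.00417, edgeR), and here the infrarenal libraries measured 0 to 0.393 CPM. POU3F2, a neural POU transcription factor, measured 0.182 to 0.313 CPM in the ascending, 1.71 to 4.43 CPM in the suprarenal and 0 to 0.170 CPM in the infrarenal libraries (log2 3.66, SE 0.72, adjusted p = 0.0499, edgeR). For SNX31 and POU3F2 every suprarenal library was thus above every ascending and every infrarenal one, given as a description with no test. The descending libraries overlapped the suprarenal ones for both genes, at 2.83 to 17.0 CPM for SNX31 and 0.303 to 2.53 CPM for POU3F2.

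PRR16, which promotes cell size and translation, was 3.43-fold higher, with 4.07, 2.53, 3.81 and 3.86 CPM in the ascending and 14.9, 10.6, 7.74 and 15.8 CPM in the suprarenal libraries (adjusted p = 0.0159, edgeR). ANGPTL5, a secreted angiopoietin-like protein, measured 1.82, 2.22, 2.54 and 4.16 CPM against 6.12, 10.3, 39.0 and 28.3 CPM (log2 2.96, SE 0.57, adjusted p = 0.047, edgeR). SERTM1, a small membrane protein, measured 2.88, 1.79, 1.51 and 3.68 CPM against 7.24, 14.6, 10.2 and 41.0 CPM (log2 2.88, SE 0.55, adjusted p = 0.0394, edgeR). The suprarenal libraries spread widely for both, and neither showed overlap. PTCHD1, a patched-domain protein, and TRPM5, a calcium-activated cation channel, had log2 differences of 2.98 (SE 0.59, adjusted p = 0.0499) and 3.53 (SE 0.63, adjusted p = 0.0254, edgeR). GeneID 102137838, without a symbol or an annotation entry, had the smallest p of all genes, with 1.38, 1.36, 0.787 and 1.15 CPM in the ascending and 26.4, 30.4, 49.7 and 24.9 CPM in the suprarenal libraries (log2 4.81, SE 0.37, adjusted p = 1.63e-05, edgeR). GeneID 102133019, likewise unnamed, had 0 counts in the ascending and 375 in the suprarenal libraries, at least 117-fold higher (adjusted p = 0.0444, edgeR).

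Many of these calls were lost in fits without 1 library, which for some genes was a descending or infrarenal one. NKAIN2 and PRR16 were lost without ascending replicate 2 or 3 (adjusted p up to 0.0674 and 0.083), and TRPM5 without ascending replicate 1, 2 or 3 or suprarenal replicate 3 (up to 0.132, edgeR). ANGPTL5 was kept only without ascending replicate 4, suprarenal replicate 1 or infrarenal replicate 1 or 4 (up to 0.199 in the others), and PTCHD1 only without ascending replicate 2, descending replicate 2 or 4 or suprarenal replicate 4 (up to 0.187, edgeR). SERTM1 was kept only without ascending replicate 4, descending replicate 1 or 4, suprarenal replicate 1 or 3 or infrarenal replicate 1 or 4 (up to 0.18, edgeR). POU3F2 was kept only without descending replicate 2, 3 or 4 or infrarenal replicate 1 or 4 (up to 0.199, edgeR), and GeneID 102133019 only without descending replicate 2 or 4 or suprarenal replicate 1 or 4 (up to 0.137, edgeR).

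The genes called lower in the suprarenal aorta included a transcription factor of the heart. HAND1, a basic helix-loop-helix factor of the developing heart, measured 7.14, 7.41, 21 and 11.6 CPM in the ascending and 0.309, 0.813, 0.254 and 0 CPM in the suprarenal libraries (log2 -5.03, SE 0.88, adjusted p = 0.0228, edgeR). Its level was under 1 CPM in every suprarenal library. GeneID 102134481, a protein-coding gene whose model overlaps HAND2, measured 46.1, 65.4, 51.2 and 34.2 CPM against 7.55, 10.7, 10.7 and 21.4 CPM (log2 -1.97, SE 0.35, adjusted p = 0.0259, edgeR). HAND1 was lost without ascending replicate 3 or suprarenal replicate 1 or 3 (adjusted p up to 0.104), and GeneID 102134481 without any 1 of ascending and suprarenal replicates 1, 2 and 3 (up to 0.119, edgeR).

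Other factors of the heart field and neural crest lay mostly below 0 without passing the main edgeR test. With the replicate block edgeR also called GATA5 (adjusted p = 0.00141), HAND2 (adjusted p = 0.028) and TFAP2A lower. Of 30 tested in that list, HAND1 was the 1 called lower, against 0.0879% of all genes, none was called higher, 20 were negative and the median difference was -0.47, or -0.30 without ascending replicate 4. At an unadjusted p under 0.05 edgeR had 13 of the 30, beside 876 of all 15926 tested genes. DESeq2 called 5 lower (HAND1, HAND2, GATA4, GATA5 and TFAP2A), beside 63 of all genes. limma voom called 2 lower (HAND1 and HAND2), beside 23 of all genes. The 4 suprarenal libraries lay below the 4 ascending ones in 6 of the 30, beside 2.08% of all tested genes. HAND2 measured 100, 107, 98.9 and 85.5 CPM in the ascending and 28.5, 44.7, 25.4 and 62.2 CPM in the suprarenal libraries, with no overlap (log2 -1.28, SE 0.27, adjusted p = 0.0747, edgeR). GATA5, an endocardial zinc finger factor, measured 30.2, 26.5, 61.3 and 70.6 CPM against 7.86, 10.4, 23.0 and 11.9 CPM (log2 -1.83, SE 0.41, adjusted p = 0.0996, edgeR). GATA4 gave 2.51, 0.679, 1.51 and 15.5 CPM against 0.0619, 0, 0.698 and 0.118 CPM (log2 -4.53, SE 1.09, adjusted p = 0.135, edgeR), and its highest ascending value was again that of replicate 4. Cardiac muscle markers were highest in ascending replicate 1, with a list score of 2.37 beside -0.48 to 0.30 in the other ascending libraries; their part in the values of HAND1 and HAND2 was not tested.

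PIANP, a ligand of the inhibitory receptor PILRA, was called lower. It measured 14, 19.8, 26.8 and 26.1 CPM in the ascending and 0.742, 0.335, 2.35 and 1.30 CPM in the suprarenal libraries, an 18.4-fold difference (log2 -4.20, SE 0.62, adjusted p = 0.00512, edgeR). NT5E, the enzyme CD73 that makes adenosine outside the cell, measured 165, 152, 233 and 184 CPM against 70.2, 81.9, 78.2 and 82.4 CPM, a 2.35-fold difference (log2 -1.23, SE 0.18, adjusted p = 0.00417, edgeR). The suprarenal values of NT5E were tightly grouped, all below the lowest ascending one. SGIP1, a regulator of endocytosis, measured 16.2, 18.5, 12 and 16.4 CPM against 6.49, 5.88, 4.19 and 4.43 CPM (log2 -1.59, SE 0.24, adjusted p = 0.00567, edgeR). The calls of PIANP, NT5E and SGIP1 were kept in all 16 fits without 1 library. All were lost with the replicate block on only the 8 compared libraries, and NT5E and SGIP1 also with a minimum log2 change of 1.

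SLC17A7, SLC6A8, ATP1B1 and CLIC6 were also called lower. SLC17A7, the vesicular glutamate transporter VGLUT1, measured 75.5, 68.8, 68.4 and 67.1 CPM in the ascending and 32.8, 18.4, 22 and 24.1 CPM in the suprarenal libraries (log2 -1.52, SE 0.25, adjusted p = 0.0139, edgeR). SLC6A8, the creatine transporter, measured 161, 212, 161 and 164 CPM against 96.8, 90.4, 80.1 and 86.1 CPM (log2 -0.98, SE 0.16, adjusted p = 0.0141, edgeR). ATP1B1, the beta subunit of the sodium pump, measured 117, 120, 121 and 65.8 CPM against 55.2, 27.1, 27.2 and 42.6 CPM (log2 -1.48, SE 0.27, adjusted p = 0.0345, edgeR). None of the 3 showed overlap between the groups. CLIC6, an intracellular channel protein, measured 4.26, 9.5, 2.0 and 7.0 CPM against 0.371, 0.191, 0 and 0.354 CPM (log2 -4.59, SE 0.77, adjusted p = 0.0162, edgeR). SLC17A7 was lost without suprarenal replicate 2 (adjusted p 0.0599), SLC6A8 without replicate 2 of either region (up to 0.0653), and CLIC6 without replicate 2 of either region (up to 0.0789, edgeR). ATP1B1 was kept only without ascending replicate 4, descending replicate 4, suprarenal replicate 1 or infrarenal replicate 1, 3 or 4 (up to 0.132 in the other 10 fits, edgeR).

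The remaining lower genes were KRT8, ART4, IVNS1ABP and NLGN2. KRT8, a simple-epithelial keratin also found in smooth muscle, measured 75.8, 79.1, 95.4 and 64.9 CPM in the ascending and 19.6, 10.2, 15.8 and 16.8 CPM in the suprarenal libraries (log2 -2.34, SE 0.46, adjusted p = 0.0493, edgeR). It was listed as a mesothelial marker. The mesothelial score was 3.61 in ascending replicate 4 and -0.94 to 0.34 in the others, and its part in the KRT8 difference was not tested. MSLN, a defining mesothelial gene, measured 40.7 CPM in that library and 0.494 to 0.787 CPM in the other 3 ascending ones. All 8 tested mesothelial markers were negative, beside 48.2% of all genes, with a median of -2.45 that became 0.09 without ascending replicate 4. Only KRT8 was called, against 0.0879% of all genes called lower. ART4, the Dombrock blood group glycoprotein, measured 10.6, 11.8, 5.21 and 10.8 CPM against 1.79, 2.44, 1.65 and 2.42 CPM (log2 -2.20, SE 0.37, adjusted p = 0.0165, edgeR). IVNS1ABP, an actin-binding kelch protein, was 2.64-fold lower (adjusted p = 0.0394), and NLGN2, neuroligin of inhibitory synapses, 1.67-fold lower (adjusted p = 0.0252, edgeR). KRT8 was kept only without ascending replicate 4, descending replicate 1, 2 or 4 or infrarenal replicate 1 (up to 0.174 in the others), and IVNS1ABP only without ascending replicate 1, descending replicate 1, 3 or 4 or infrarenal replicate 1 (up to 0.147, edgeR). ART4 was lost without ascending replicate 1 or 2 or suprarenal replicate 1, 2 or 3 (up to 0.0764), and NLGN2 without ascending replicate 2 or 3 or suprarenal replicate 1, 2 or 4 (up to 0.105, edgeR).

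Among matrix genes, COL1A1 was called higher. COL1A1, which encodes the main chain of collagen I, measured 675, 583, 662 and 924 CPM in the ascending and 1243, 2542, 2321 and 2623 CPM in the suprarenal libraries, a 3.07-fold difference without overlap (log2 1.62, SE 0.31, adjusted p = 0.0444, edgeR). Its call was kept only without ascending replicate 4, suprarenal replicate 1 or infrarenal replicate 1, 3 or 4, with an adjusted p of up to 0.199 in the other 11 fits. COL1A2, the partner chain, measured 1863, 1420, 1347 and 1526 CPM against 2355, 2817, 2625 and 3267 CPM (log2 0.85, SE 0.22, adjusted p = 0.209, edgeR), again with no overlap. Of 18 fibrillar and interstitial collagen genes tested, COL1A1 was the 1 called higher, against 0.17% of all genes, and 12 were positive, against 51.8%. In 5 of the 18 all suprarenal libraries lay above all ascending ones, against 1.74% of all genes. The median difference was 0.48, or 0.31 without suprarenal replicate 3. DESeq2 called 4 (COL1A1, COL1A2, COL6A3 and COL8A1) and limma voom COL1A1. COL6A3, of the beaded-filament collagen VI, had a log2 difference of 1.42 (SE 0.30, adjusted p = 0.0776, edgeR), and COL8A1, of the short-chain collagen VIII, one of 1.65 (SE 0.45, adjusted p = 0.228, edgeR). ITGBL1, an integrin beta-like secreted protein, was called higher, with 57.4, 41.6, 56.3 and 40.5 CPM against 97.2, 141, 179 and 184 CPM (log2 1.62, SE 0.29, adjusted p = 0.0259, edgeR); it was lost without any 1 ascending library or without suprarenal replicate 2, 3 or 4 (up to 0.137, edgeR).

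No elastic fibre gene was called by edgeR, DESeq2 or limma voom in the fits without the replicate block. The block added MFAP5, called lower (adjusted p = 0.0246, edgeR). At an unadjusted p under 0.05 the main edgeR fit had 2 of 21, beside 876 of all 15926 tested genes. ELN, elastin, measured 225, 521, 406 and 118 CPM in the ascending and 297, 388, 168 and 189 CPM in the suprarenal libraries (log2 -0.28, SE 0.54, adjusted p = 1.00, edgeR). The spread within each region was larger than the difference, and its sign turned to 0.06 without ascending replicate 2. FBN1, fibrillin 1, measured 520, 554, 452 and 315 CPM against 643, 446, 462 and 701 CPM (log2 0.29, SE 0.22, adjusted p = 1.00, edgeR). Of 21 tested elastic fibre genes, 10 were positive and the median was -0.06; MFAP5, a microfibril glycoprotein, reached -1.39 (SE 0.61, adjusted p = 0.83) and EMILIN2 -0.49 (SE 0.19, adjusted p = 0.705, edgeR). Basement membrane genes gave no call among 23 by the 3 tools (4 at an unadjusted p under 0.05 in edgeR), with a median of 0.23 that was 0.13 without suprarenal replicate 2; COL4A3 had a log2 difference of -1.05 (SE 0.30, adjusted p = 0.273) and the laminin chain LAMA5 one of 0.51 (SE 0.17, adjusted p = 0.515, edgeR). Proteoglycans (27 tested, median -0.00), cartilage-like matrix genes (18, median -0.12) and extracellular proteases with their inhibitors (26, median 0.17) gave no call by the 3 tools either, with 2, 3 and 0 genes at an unadjusted p under 0.05. Without suprarenal replicate 3 these medians were -0.14, -0.58 and 0.04. Within the proteoglycans PRELP had a log2 difference of -0.74 (SE 0.25, adjusted p = 0.487) and ASPN one of -1.59 (SE 0.54, adjusted p = 0.503, edgeR). With the replicate block ASPN was called lower (adjusted p = 0.0161, edgeR). Of 28 tested genes behind heritable thoracic aortic disease, COL1A1 was the 1 called, by each of the 3 tools. In edgeR 0.17% of all genes were called higher. The median of the 28 was -0.09, or 0.09 without suprarenal replicate 3.

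**Figure D4:**
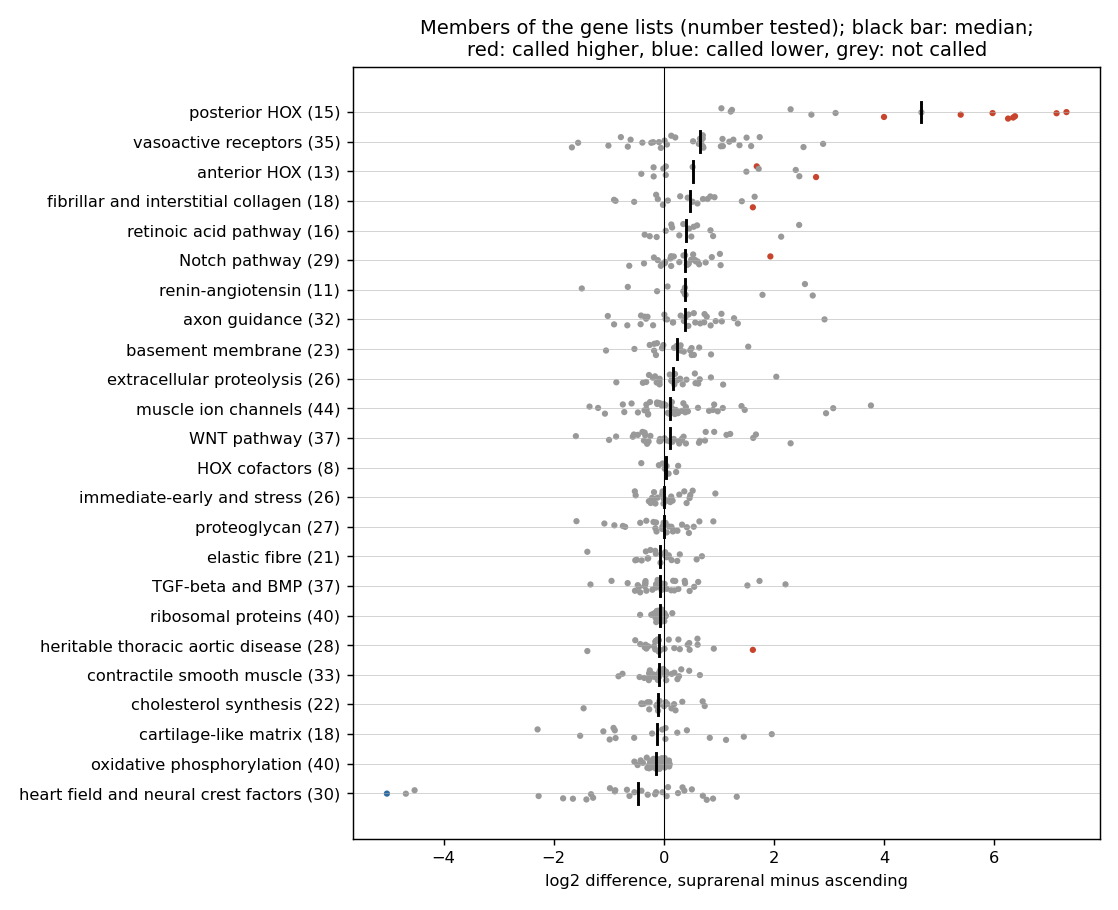
Log2 difference, suprarenal minus ascending, of each tested member of the pathway and tissue lists, with the number tested in brackets; black bars are medians, red and blue points were called higher and lower. The posterior HOX list has its median at 4.68 and 8 red points, and the heart field and neural crest list has its median at -0.47 and 1 blue point.

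In edgeR and limma voom, no gene of the TGF-beta and BMP, WNT, axon guidance or renin-angiotensin lists was called. At an unadjusted p under 0.05 edgeR had 3, 7, 4 and 2 genes, and DESeq2 called SFRP1, SFRP4 and SLIT3 higher. Of 37 TGF-beta and BMP genes tested, 15 were positive and the median was -0.06, or 0.06 without ascending replicate 4; GREM1, a BMP antagonist, had a log2 difference of 2.21 (SE 0.79, adjusted p = 0.589) and BMPR1B, a BMP receptor, one of -1.33 (SE 0.55, adjusted p = 0.754, edgeR). Of 37 WNT genes, 21 were positive and the median was 0.11, or -0.09 without suprarenal replicate 3. SFRP1, a secreted WNT antagonist, measured 74.3, 117, 68.3 and 89.6 CPM in the ascending and 221, 170, 118 and 297 CPM in the suprarenal libraries (log2 1.21, SE 0.28, adjusted p = 0.123, edgeR), and the groups just missed each other. SFRP4 had one of 2.30 (SE 0.70, adjusted p = 0.361) and DKK3 one of -0.99 (SE 0.28, adjusted p = 0.275, edgeR). Of 32 axon guidance genes, 23 were positive with a median of 0.38, which was -0.07 without suprarenal replicate 3. The guidance ligand SLIT3 measured 106, 73.4, 94.7 and 102 CPM against 177, 140, 201 and 258 CPM, without overlap (log2 1.05, SE 0.23, adjusted p = 0.0827, edgeR), and the ephrin receptor EPHA3 had a log2 difference of -1.02 (SE 0.40, adjusted p = 0.705, edgeR). The 11 tested renin-angiotensin genes had a median of 0.38, which was -0.00 without suprarenal replicate 3.

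No gene of the contractile apparatus was called by edgeR, DESeq2 or limma voom. Of 33 tested, 1 had an unadjusted p under 0.05 in edgeR, 11 were positive and the median was -0.09, or 0.09 without suprarenal replicate 3; PDLIM3, a Z-line protein, had the smallest p, with a log2 difference of -0.82 (SE 0.33, adjusted p = 0.723, edgeR). The list score was 0.15 to 0.36 in ascending replicates 1 to 3 and -0.46 in replicate 4, and 0.04 to 0.34 in suprarenal replicates 1, 2 and 4 and -0.74 in replicate 3. Among 44 tested ion channels of muscle edgeR and limma voom called none, with 13 at an unadjusted p under 0.05 in edgeR. DESeq2 called 4 higher (KCNAB1, KCNK2, P2RX1 and TRPC6). The median was 0.12, or -0.01 without suprarenal replicate 2. KCNAB1, a potassium channel beta subunit, measured 1.00, 1.54, 1.15 and 1.63 CPM in the ascending and 1.92, 24.9, 13.2 and 5.08 CPM in the suprarenal libraries (log2 3.08, SE 0.64, adjusted p = 0.0708, edgeR). P2RX1, the ATP-gated channel, measured 0.908 to 4.22 CPM in the ascending and 9.46, 111, 20.3 and 1.48 CPM in the suprarenal libraries (log2 3.76, SE 0.97, adjusted p = 0.199, edgeR). Suprarenal replicate 2 was highest for both, as it was for HOXA9 and NKAIN2. TRPC6, a receptor-operated cation channel, had a log2 difference of 0.98 (SE 0.27, adjusted p = 0.235, edgeR).

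Of 35 vasoactive receptors and their effectors tested, 24 were positive and the median was 0.66; the median was 0.34 without suprarenal replicate 3 and 0.25 without both libraries that stood apart. None was called by edgeR or limma voom, 10 had an unadjusted p under 0.05 in edgeR, and DESeq2 called GUCY1A1, PDE3A and PTGER2 higher. The 2 subunits of soluble guanylate cyclase, the receptor for nitric oxide, were among the genes with the smallest p in this list. GUCY1A1 measured 15.2, 17.5, 15.4 and 26.4 CPM in the ascending and 45.2, 44.3, 75.6 and 46.5 CPM in the suprarenal libraries (log2 1.5, SE 0.31, adjusted p = 0.0708, edgeR). GUCY1B1 measured 41.7, 49.9, 40.1 and 45.5 CPM against 69.8, 71.2, 64.2 and 70.3 CPM (log2 0.64, SE 0.21, adjusted p = 0.45, edgeR). Neither subunit overlapped between the regions, and neither passed the edgeR test. PDE3A, which degrades cyclic nucleotides, measured 105, 107, 86.2 and 76.5 CPM against 250, 200, 110 and 229 CPM (log2 1.07, SE 0.26, adjusted p = 0.13, edgeR).

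Lists of cell state gave no call by edgeR, DESeq2 or limma voom, and 1 gene of cholesterol synthesis was their only one at an unadjusted p under 0.05 in edgeR. Of 40 tested nuclear genes of oxidative phosphorylation 32 lay below 0, beside 48.2% of all genes, with a median of -0.15. Of 40 tested ribosomal protein genes 34 also lay below 0, with a median of -0.07 that was 0.04 without ascending replicate 4. Cholesterol synthesis genes (22 tested, 13 below 0) had a median of -0.10, and immediate-early and stress genes (26 tested, 14 below 0) one of -0.00.

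Markers of other cell types varied within each region, and their part in the results above was not tested. All 17 tested white adipocyte markers were positive, with a median difference of 2.74. None was called by edgeR or limma voom, 11 had an unadjusted p under 0.05 in edgeR, and DESeq2 called ADIPOQ and PCK1 higher. Their list score was -0.88, -1.79, -1.99 and 0.22 in the ascending and 1.52, -1.86, 3.08 and 1.70 in the suprarenal libraries, and their summed level ran from 255 to 856 CPM and from 266 to 4226 CPM. ADIPOQ, adiponectin, measured 2.69, 1.23, 2.54 and 10.6 CPM in the ascending and 37.1, 1.77, 345 and 63.3 CPM in the suprarenal libraries, so suprarenal replicate 2 was in the ascending range. Its log2 difference was 4.71 (SE 1.61, adjusted p = 0.522, edgeR). PCK1, which adipocytes use to make glycerol for fat storage, had one of 4.06 (SE 1.27, adjusted p = 0.386, edgeR). Of 10 brown adipocyte markers 5 were positive, 3 had an unadjusted p under 0.05 in edgeR, none was called by the 3 tools and the median was -0.02; UCP1, the thermogenic uncoupling protein, had 0 counts in the ascending libraries and 2.04, 0, 0.254 and 12.3 CPM in the suprarenal ones, and was not called (adjusted p = 0.563, edgeR). KCNK3, a potassium channel of brown fat and of smooth muscle, had a log2 difference of -1.07 (SE 0.39, adjusted p = 0.614, edgeR).

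**Figure D5:**
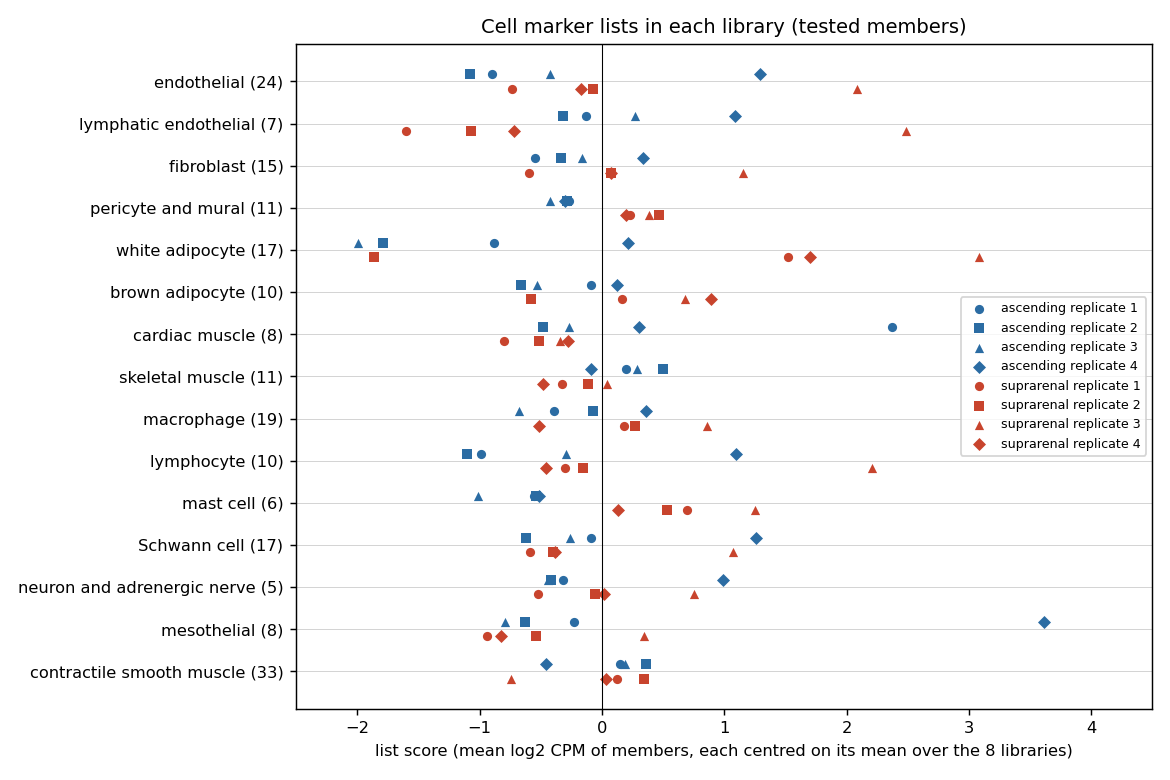
Score of each cell marker list and of the contractile smooth muscle list in the 8 libraries, as the average log2 CPM of its tested members after subtracting each member's own 8-library mean; numbers in brackets are tested members. Suprarenal replicate 3 (red triangle) and ascending replicate 4 (blue diamond) are highest of their regions in endothelial and lymphocyte markers, and only the mural and mast cell lists separate the regions without overlap.

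Endothelial markers were positive in 22 of 24 tested, none called, with a median of 0.71 that became -0.40 without suprarenal replicate 3; that library scored 2.09 and ascending replicate 4 scored 1.30, while the other 6 lay between -1.08 and -0.07. Lymphatic endothelial markers (7 tested) had a median of 0.76, which was -1.62 without the same library. Lymphocyte markers (10 tested of 24) had a median of 0.83 and -0.41 without it, and macrophage markers were positive in 18 of 19, with a median of 0.45 that was 0.22 without it. Fibroblast markers (15 tested, 10 positive) had a median of 0.42, which was -0.02 without the same library, and THY1, a surface glycoprotein of adventitial fibroblasts, had a log2 difference of 1.32 (SE 0.41, adjusted p = 0.386, edgeR). No gene of these 5 lists was called by edgeR, DESeq2 or limma voom; at an unadjusted p under 0.05 edgeR had 0 endothelial, 1 lymphatic, 2 lymphocyte, 1 macrophage and 5 fibroblast genes.

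Mast cell markers were positive in 5 of 6 tested, with a median of 1.95 that was 1.29 without suprarenal replicate 3. Their score was -1.01 to -0.51 in the ascending and 0.14 to 1.25 in the suprarenal libraries. CPA3, the mast cell carboxypeptidase, measured 3.26, 1.85, 0.363 and 0.845 CPM against 11.9, 6.07, 7.23 and 6.20 CPM, without overlap (log2 2.31, SE 0.83, adjusted p = 0.585, edgeR). Schwann cell markers (17 tested) had a median of -0.19, which was 0.50 without ascending replicate 4 and -0.61 without suprarenal replicate 3. GFAP, an intermediate filament of non-myelinating Schwann cells, measured 3.82, 2.72, 2.72 and 5.85 CPM against 0.990, 0.383, 2.54 and 0.827 CPM (log2 -1.68, SE 0.56, adjusted p = 0.473, edgeR). Neuron and adrenergic nerve markers were mostly under the filter, with 5 of 20 tested and a median of 0.14, which was 1.40 without ascending replicate 4 and -0.15 without suprarenal replicate 3. Cardiac muscle markers were all negative (8 of 8 tested, median -1.19), but the median was -0.11 without ascending replicate 1, in which MYL2, ventricular myosin light chain, measured 99.4 CPM beside 0.123 to 0.605 CPM in the other 3. Of 11 tested skeletal muscle markers 7 were negative (median -0.13, or -0.59 without suprarenal replicate 3); MYH1, a fast myosin, measured 2.88, 7.53, 15.4 and 1.39 CPM against 0.619, 0.717, 0.444 and 0.709 CPM (log2 -3.43, SE 0.82, adjusted p = 0.13, edgeR). Of these mast cell, Schwann cell, neuron, cardiac and skeletal muscle markers, 4, 1, 0, 3 and 3 had an unadjusted p under 0.05 in edgeR, edgeR and limma voom called none, and DESeq2 called MYH1 lower. Markers of the adrenal cortex, a gland that lies near the suprarenal aorta, were under the filter in 8 of 10, and no red blood cell marker of 12 could be tested.

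With ascending replicate 4 and suprarenal replicate 3 both left out, an alternative added after the data were seen, 30 genes were called, 22 higher and 8 lower, and 20 of them were among the 41. The tested posterior HOX genes then had 14 of 15 positive and 7 called, and the heart field list had no call. NOTCH3 remained called in the Notch and mural lists, while COL1A1 and KRT8 were no longer called. Of the 39 lists with a tested member, 20 had a median that turned sign in at least 1 fit without 1 ascending or suprarenal library. Leaving out 1 library at a time gave between 19 calls (without ascending replicate 2) and 66 calls (without ascending replicate 4). Of the 16 such fits, 5 moved the count by over 1.5 times: 25, 19 and 20 genes were called without ascending replicate 1, 2 and 3, 66 without ascending replicate 4 and 21 without suprarenal replicate 2.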

How the data were processed

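Read counts per gene were deposited by the authors for each library and as a series table. Per the submitters' processing notes, fastp, HISAT2 2.0.5 and featureCounts 1.5.0-p3 were used; the genome build and strand setting were not given in the sources used here, and no genome was used. All 32846 rows were kept, among them 24 mitochondrial rows without a GeneID (0.0295 to 0.118% of counts). Symbols came by GeneID from RefSeq (telomere-to-telomere genome MFA8v1.1), which matched 74.9% of rows and 97.2% of counts; coordinates were not used.

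Genes with enough counts (filterByExpr, minimum count 10, minimum total 15) were tested with edgeR 4.0.16 (R 4.3.3; TMM, quasi-likelihood F test, 12 residual degrees of freedom) on all 16 libraries with a mean per region, contrast suprarenal minus ascending, adjusted over 15926 genes. Total counts ran from 14402824 to 21407514. No library looked like a duplicate of another (lowest chi-square per degree of freedom 30.1). The test was checked on simulated counts.

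Named genes were NOTCH3, ELN and FBN1; the 12 largest called changes in each direction among symbol-bearing genes that averaged at least 1 on the log2 CPM scale and showed no overlap; up to 4 genes of smallest p per list; and the 3 largest in each direction called only with the replicate block. Other called genes and some list members were named after their values were seen, and some genes are not reported here. The 40 lists and the comparison itself were chosen with earlier results of these data known. Alternatives were another scaling, filter or tool (DESeq2 1.42.0, limma 3.58.1), a replicate block, and leaving libraries out.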

Additional observations from a re-analysis of the deposited data

Results flagged for a closer look

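Single libraries stood apart from the other 3 of their region in 22 of 208 gene groups and 8 of 76 list scores checked (Dixon's test at 95%, 4 samples). The chance rate of about 1 in 20 holds for independent, normally distributed values. The CPM were not log-transformed and all groups share the same libraries, so these counts cannot be set against that rate. Ascending replicate 4 was the most frequent. It was high in TENM3 (7.36 CPM, the others up to 4.6), HOXA9 (0.362, up to 0.0627), HOXD4 (11, up to 1.51), HOXD8 (6.16, up to 1.25), TRPM5 (0.483, up to 0.125), GATA4 (15.5, up to 2.51), ADIPOQ (10.6, up to 2.69) and MSLN (40.7, up to 0.787). The same library was low in ATP1B1 (65.8 CPM, the others from 117) and KCNK3 (47.2, from 86.0). Its list scores of 3.61 for mesothelial, 0.99 for neuron and adrenergic nerve markers and -0.25 for muscle ion channels also lay outside.

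Suprarenal replicate 3 was low in PCDH9 (2.73 CPM, the others from 17.6) and high in GUCY1A1 (75.6, up to 46.5), GATA4 (0.698, up to 0.118) and MSLN (2.03, up to 0.43). Its list scores stood apart for lymphocyte markers (2.21), Schwann cell markers (1.07), TGF-beta and BMP genes (0.41) and heart field and neural crest factors (-0.00881). Suprarenal replicate 2 was high in NKAIN2 (27.5 CPM, up to 5.57) and GeneID 102133019 (14.1, up to 2.60), and suprarenal replicate 4 in UCP1 (12.3, up to 2.04).

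Ascending replicate 2 was low in PRR16 (2.53 CPM, the others from 3.81) and high in SLC6A8 (212, up to 164), HOXA10 (0.185, up to 0.0627) and PDLIM3 (691, up to 407). Some flags rest on few reads. HOXA10, HOXA9 and TRPM5 held 6, 9 and 13 counts over the ascending libraries together, and GATA4 held 14 over the suprarenal ones. Ascending replicate 1 held MYL2 at 99.4 CPM, with the others up to 0.605. Ascending replicate 3 had the lowest mast cell score (-1.01, the others from -0.55).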

How the results depend on the processing

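All 41 called genes kept their sign in each of the 28 other settings that tested them. HOXB8 and GeneID 102133019 were tested in 26 of these, and 3 genes (HOXA7, HOXA10 and GeneID 102137838) were called in all 28. The number called, 41 in the main fit, was 184 with DESeq2 (121 higher, 63 lower, all 41 among them), 14 with a minimum log2 change of 1, 22 with only the 8 libraries compared, and between 19 and 66 leaving out 1 library. limma voom called 42, of which 19 were higher and 23 lower (45.2% higher, beside 65.9%), and 31 were shared. The number was 40 with RLE size factors, 34 with library totals, and 45 and 42 with looser and stricter filters. Left out as an alternative added after the data were seen, ascending replicate 4, suprarenal replicate 3 and infrarenal replicate 1 together gave 113 calls (68 higher, 45 lower, 33 shared); the last of these had a TMM factor of 0.736. The causes were not tested. No label says that a replicate number marks an animal. The correlations of same-numbered deviations between the 2 regions were 0.575, 0.39, -0.06 and -0.17, so the numbers were not taken to pair the samples. Of the 8 libraries 4 were closest to their own number in the other region, while over the 4 regions 15 of 16 were closest on average to their own number, a hint of shared sources from the data and not from the design. With the replicate block 76 genes were called (40 higher, 36 lower, 39 shared), and 4 with the block and only the 8 libraries; CPA3, NR2F1 and ZFHX4 (higher) and BCO2, KCNG1 and MAB21L2 (lower) were the largest called only with the block. Of the other genes named, the block added GATA5 (adjusted p = 0.00141, edgeR), HAND2 (0.028), SLIT3 (0.0268), MFAP5 (0.0246), ASPN (0.0161) and TFAP2A, and ATP1B1 (0.0545) and ITGBL1 (0.0526) were no longer called. Signs turned for 7 genes, none of them called. In the fits without 1 library ELN ran from -0.558 (without ascending replicate 4) to 0.0573 (without ascending replicate 2), HOXA4 from -0.40 to 0.0558 (without ascending replicate 1), ACTA2 from -0.181 to 0.0928 and MYH11 from -0.442 to 0.11 (both without suprarenal replicate 3, and 0.0223 and 0.0238 without ascending replicate 2), MYL2 from -5.89 to 0.449 (without ascending replicate 1) and MSLN from -4.92 to 0.35 (without ascending replicate 4). HEYL ran from -0.268 to 0.0776 (without suprarenal replicate 3), and stood at 0.00776 and 0.0152 where 2 and 3 libraries were left out.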
